A study of Ictidomys tridecemlineatus with 15 samples.

Results

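The step from early torpor (ET) to late torpor (LT) was examined in the livers of 13-lined ground squirrels, hibernators that spend most of the winter in bouts of torpor broken by short returns to a high body temperature. ET and LT are both cold states that lie at the start and toward the end of a torpor bout, so the comparison describes what differed between livers that had been at nearly the same low body temperature for a short or a long time. It rests on 5 of the 14 libraries with counts in the series, 3 of ET and 2 of LT. They were taken by the state in the labels of the animals. All animals were female squirrels from the breeding colony of the University of Wisconsin Oshkosh, kept in the laboratory with implanted temperature recorders and, per the labels, under no other treatment, and each library is the liver of a different animal. The other libraries, 3 each of the summer active (SA), interbout aroused (IBA) and entrance (Ent) states, share the fit and are used only to place the ET and LT values. The ET animals all came from a later hibernation season than the LT animals and were taken earlier in the winter, so season, time of winter and state cannot be told apart here.

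Global run-on sequencing (GRO-seq) isolates nuclei and lets the RNA polymerases that had started on a gene extend their RNA with a labelled nucleotide, and only the labelled RNA is sequenced. The reads therefore mark where polymerases sat at the moment the liver was frozen, not the RNA that had built up in the cell. The run-on itself took place in warmed nuclei, so differences between ET and LT are differences in the number and place of engaged polymerases and not in their speed in the cold animal. A polymerase needs longer to cross a long gene than a short one, and no speed was measured here. From the downstream shift of polymerases past gene ends between ET and LT, the study estimated a very slow elongation. It proposes that termination stopped in torpor while elongation went on. That shift was not examined here, since counts per unit do not give positions.

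The counts were deposited per unit, a gene body redrawn by the authors from the GRO-seq signal without its first 500 nt, on genome HiC_Itri_2. The table holds 6324 units, of which 4705 bear 1 gene name and 1619 bear several, and lengths run from 284 to 1969614 nt. The 5 libraries had between 4819193 and 6740437 counts, and the 14 libraries between 3713883 and 8884763. Levels are given as CPM, which sets each count against the size of its library after scaling by the TMM method, whose factors lay between 1.01 and 1.07 in ET and LT. Scaling of this kind sets a unit against all others in its library, so an overall loss of transcription in the cold would not be seen. In whole liver, fewer cells of a type and less nascent RNA per cell cannot be told apart.

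Most units did not pass a test between ET and LT. At the threshold of 0.001 used in the study, the quasi-likelihood test of edgeR, adjusted by the Benjamini-Hochberg method, called 0 of the 4705 single-gene units, and 436 reached 0.05 before adjustment. The Wald test of DESeq2 called, at 0.001, 31 units lower in LT (0.659%) and 2 higher (0.0425%). At an adjusted p of 0.05, the threshold used for "called", "rose" and "fell" in what follows, edgeR called 16 units lower in LT (0.34%) and 0 higher (0%), and limma-voom called 17 lower and 1 higher. Of the 436 units with an unadjusted p at or under 0.05, 286 were lower in LT (6.08% of all single-gene units) and 150 higher (3.19%). The lower ones made up 65.6% of the 436, and 53.7% of such units with a smooth trend on unit length removed from every library. In 653 units (13.9%) both LT libraries lay below all ET libraries, and in 503 (10.7%) both lay above.

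The number of calls rested on single animals. Without ET replicate 1, 9 units were called lower in LT and 2 higher, and without LT replicate 3, 16 lower, 8 of them the same units, and 3 higher. Without ET replicate 2 and ET replicate 3, 1 and 6 units were called lower and 0 higher. Without LT replicate 1, 0 were called in either direction. With the 5 ET and LT libraries fitted alone, where the spread between animals rested on those 5 libraries, the number was also 0. The reason for this loss of calls was not tested. The libraries of a state stood as far apart as the states did. The root mean square difference of log2 CPM over single-gene units was 0.414 to 0.603 for the 4 pairs within a state and 0.375 to 0.577 for the 6 pairs of an ET and an LT library, and the closest pair of all was ET replicate 3 with LT replicate 3.

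The width of the intervals shows what these libraries could resolve. The median 95% interval of a log2 fold change reached 0.482 to either side. For 3655 units (77.7%) the interval lay within a 2-fold change in either direction, and for 1765 (37.5%) within 1.5-fold. Among units under 10 kb the first share was 37.0%, and among those of 100 to 200 kb it was 88.9%. The intervals of the short units were thus the wider ones.

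The change from ET to LT followed the length of the unit, with short units lower in LT. The 378 single-gene units under 10 kb had a median log2 fold change of -0.30. Of these, 272 were lower in LT (72.0%, against 52.8% of all single-gene units). In the 912 units of 10 to 20 kb the median was -0.12, and in the 1639 of 20 to 50 kb it was -0.02. It was 0.03 in the 973 units of 50 to 100 kb, 0.04 in the 532 of 100 to 200 kb and 0.05 in the 271 of 200 kb or more, against -0.02 over all single-gene units. The trend lay below 50 kb. Across all single-gene units the Spearman rho between length and log2 fold change was 0.263, across the 4327 units of 10 kb or more it was 0.220, and across the 1776 of 50 kb or more it was 0.029. Units are not independent replicates and share the same 5 libraries, so these values describe the table and carry no test. The authors merged the signal segments of all states, ET and LT included, and lengthened a unit where its segment ran further downstream. Unit length is therefore not independent of the reads compared here. The part of this in the trend was not tested.

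**Figure D1:**
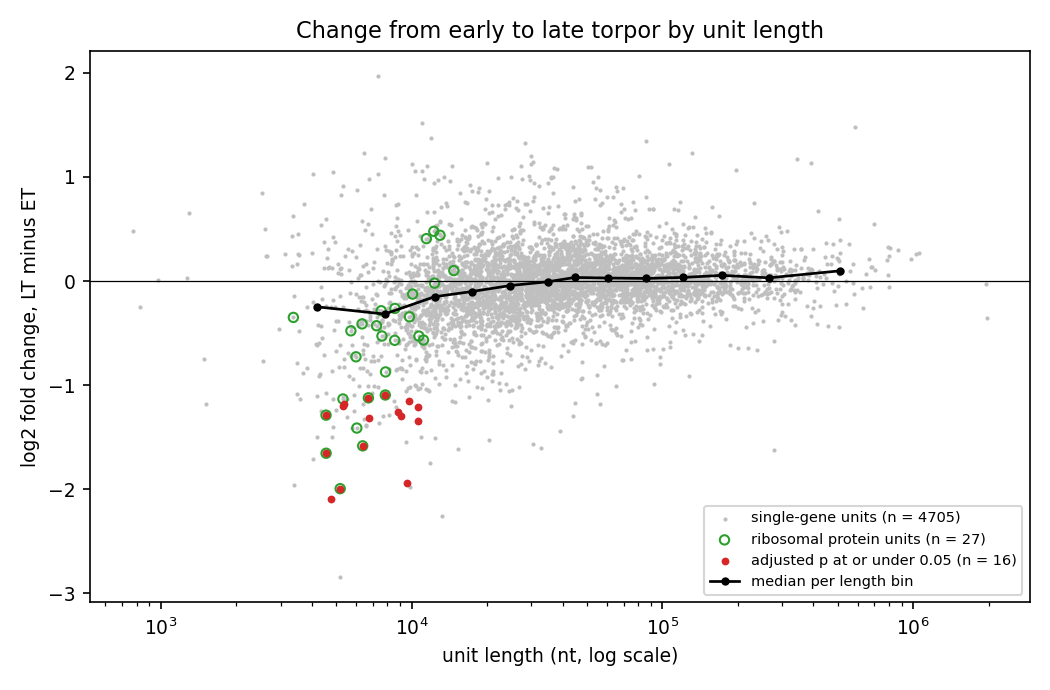
Each grey point is a single-gene unit (n = 4705), with its length in nt on a log axis and its log2 fold change, LT minus ET, on the vertical axis. The black line joins the median of each length bin, which runs from -0.25 in the units under 5 kb to 0.10 in those of 400 kb or more, red points are the 16 units with an adjusted p at or under 0.05, and green rings are the 27 ribosomal protein units.

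The calls were gathered at the short end as well. Of the 16 called units, 14 were shorter than 10 kb and 2 lay between 10 and 20 kb. An unadjusted p at or under 0.05 was reached by 94 of the 378 units under 10 kb in the lower direction (24.9%, against 6.08% of all units) and by 9 in the higher direction (2.38%, against 3.19%). In the units of 200 kb or more, 1 of 271 reached it as lower and 5 as higher. No overlap between the states, with LT below ET, was found in 137 units under 10 kb (36.2%, against 13.9% of all) and in 10 of the units of 200 kb or more (3.69%). With LT above ET the numbers were 19 (5.03%, against 10.7%) and 34 (12.5%).

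The single libraries differed in how far they carried this pattern. Deviations of log2 CPM were taken from the mean of the 5 libraries, 3 of ET and 2 of LT, so 0 lies nearer to ET. For the units under 10 kb, the median deviation was 0.22, 0.09 and 0.15 in ET replicates 1, 2 and 3, and -0.29 and -0.08 in LT replicates 1 and 3. The LT libraries were both below the ET libraries, LT replicate 1 by far more than LT replicate 3. In the units of 200 kb or more the deviations were -0.10, 0.05 and -0.03 in ET and 0.02 and 0.04 in LT, and the states overlapped. The median of the longest class minus that of the shortest was 0.36 on the log2 scale. It was 0.27 without LT replicate 1 and 0.48 without LT replicate 3. Between the longest and the shortest quartile it was 0.20, and within the middle and highest tertile of read density, which held 68 and 310 of the short units, it was 0.16 and 0.36.

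**Figure D2:**
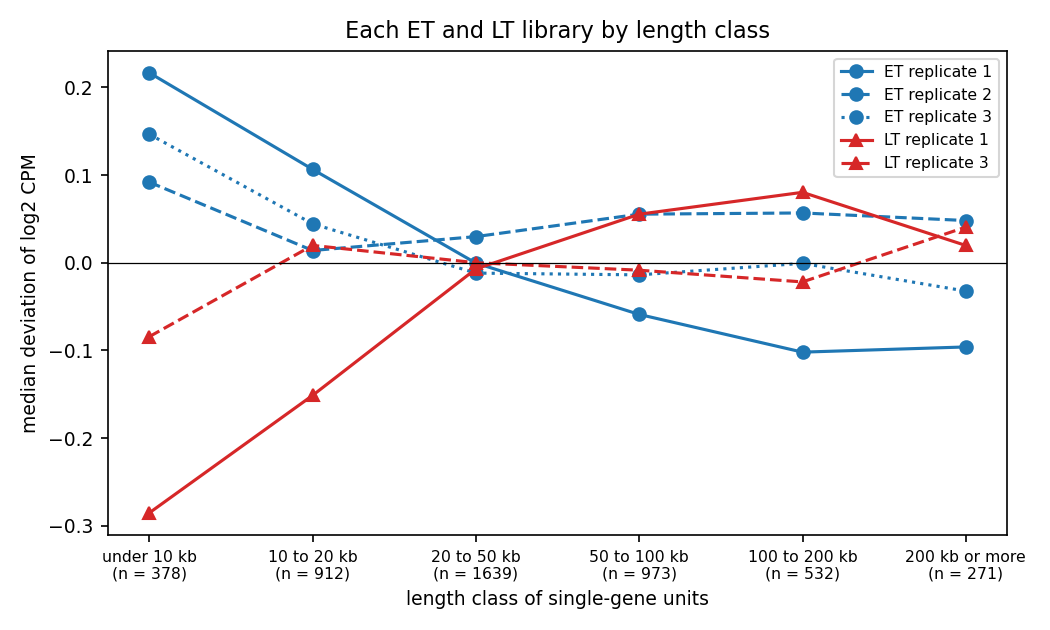
Median deviation of log2 CPM from the mean of the 5 libraries, for each of the 3 ET (circles) and 2 LT (triangles) libraries and each length class of single-gene units. The ET and LT libraries stand apart in the units under 10 kb, from 0.22 in ET replicate 1 to -0.29 in LT replicate 1, and overlap in those of 200 kb or more.

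The same difference can be read in shares of reads. Units under 10 kb held 2.37%, 2.15% and 2.25% of the single-gene counts in ET replicates 1, 2 and 3 and 1.76% and 1.93% in LT replicates 1 and 3. That is 2.26% ± 0.11 (SD, n = 3) against 1.85% ± 0.13 (SD, n = 2), a difference of -0.41 percentage points. The two-sided exact permutation test gave p = 0.2, the smallest p that this test allows for 3 libraries against 2. Units of 10 to 20 kb held 9.44% ± 0.43 in ET and 8.68% ± 0.59 in LT (SD, n = 3 and 2), again without overlap (exact permutation test, p = 0.2). Units of 200 kb or more held 16.0% ± 0.76 in ET and 16.5% ± 0.53 in LT, and the libraries overlapped (exact permutation test, p = 0.4). In the 9 SA, IBA and Ent libraries, units under 10 kb held between 2.31% and 3.30% of the single-gene counts. The lowest of them, SA replicate 2, lay inside the range of ET, and both LT libraries were below all 12 others.

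**Figure D3:**
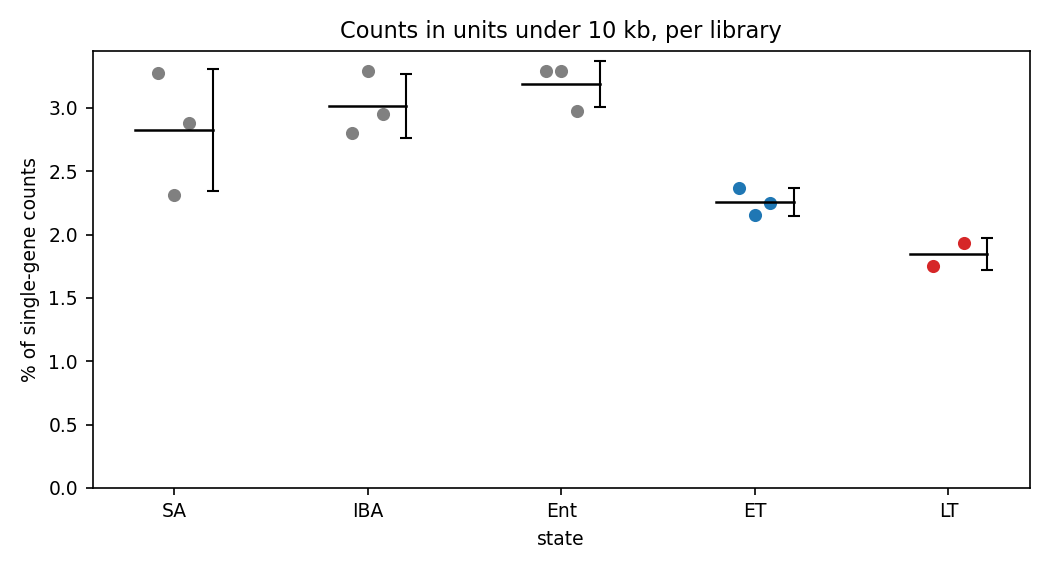
Percent of the single-gene counts that fell in units under 10 kb, on an axis that starts at 0, for each library (points) of the 5 states, with the mean (line) and SD (bar). The ET libraries sit between 2.15% and 2.37% and the LT libraries at 1.76% and 1.93%, below the other 12.

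Short units also differed at earlier steps. Their median log2 fold change was 0.25 between IBA and Ent, -0.37 between Ent and ET and -0.30 between ET and LT, and for the units of 200 kb or more these medians were -0.12, -0.20 and 0.05. Successive steps share a state, so the medians are set side by side and were not tested against each other. The drop between ET and LT was present at low and high density of reads. When the 378 short units were split by their mean CPM per kb in SA, IBA and Ent, libraries that take no part in the contrast, the median from ET to LT was -0.25 in the lowest tertile, -0.42 in the middle and -0.31 in the highest. It was -0.25 in the 77 units under 5 kb and -0.32 in the 301 of 5 to 10 kb. Merged units, which were not counted above, had medians of -0.13 under 10 kb (150 units) and 0.04 at 200 kb or more (77 units). Most names among the short units were gene symbols, and 66 were unannotated transcripts (names of the form G and a number), with a median of -0.34.

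Cytosolic ribosomal protein genes, whose products build the ribosome together with ribosomal RNA, were lower in LT where their units were short. Of 27 such units with a name of their own, 19 were under 10 kb, and all 19 were lower in LT than in ET with TMM, upper-quartile, DESeq2 and plain total-count scaling. Of these, 6 were called, against 14 of all 378 units under 10 kb and 0.34% of all units, these 6 included. An unadjusted p at or under 0.05 was reached by 13 of the 19 (68.4%). As lower in LT, 24.9% of the units under 10 kb and 6.08% of all units reached it. In 17 of the 19 the libraries did not overlap (89.5%, against 36.2% of the units under 10 kb and 13.9% of all units). The median log2 fold change was -0.73, against -0.29 in the 242 other units with a gene symbol under 10 kb. The 8 ribosomal protein units of 10 kb or more had a median of 0.04, with 4 higher and 4 lower in LT and 0 called. At an unadjusted p at or under 0.05, 2 of these 8 were higher (25%, against 3.19% of all units) and 0 lower. The median of the 19 short units by library was 0.30, 0.33 and 0.27 above the mean of the 5 libraries in ET replicates 1, 2 and 3. It was -0.62 and -0.41 from that mean in LT replicates 1 and 3. Without either LT library, 18 of the 19 were lower. The called number was 0 without LT replicate 1, 1 without ET replicate 2, and 3 without each of the other libraries. With the trend on unit length removed, 18 of the 19 were lower with a median of -0.45 and 0 were called.

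Rps27a, which encodes ubiquitin fused to a ribosomal protein of the small subunit, had the smallest p of all units. It lies on the minus strand of Itri12 from 26935433 to 26940620, and the next unit upstream on that strand, Eml6, ends 222859 nt away. Its level was 37.3, 49.9 and 34.6 CPM in ET replicates 1, 2 and 3 and 11.03 and 9.28 CPM in LT replicates 1 and 3, from between 63 and 254 counts per library. Both LT libraries lay far below the lowest ET library. The unit fell by 2.00 on the log2 scale, a 3.99-fold decrease (SE [SE] 0.21, edgeR adjusted p = 0.00257). Its adjusted p lay between 2.9e-15 with DESeq2 and 0.33 over the 15 alternatives, and it passed at 0.05 in 12 of them.

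Rps26, another component of the small ribosomal subunit (Itri4, minus strand, 58412806 to 58417364), had 30.6, 31.0 and 23.8 CPM in ET and 9.22 and 8.84 CPM in LT. It fell by 1.65 on the log2 scale (SE 0.23, edgeR adjusted p = 0.0208). Rps27 (Itri11, plus strand, 24710358 to 24718208) had 85.1, 108 and 81.1 CPM in ET and 40.2 and 45.2 CPM in LT, and fell by 1.10 (SE 0.17, edgeR adjusted p = 0.0261). In both, the LT libraries lay close together and far from the lowest ET library. Rps23 fell by 1.29, Rpl31 by 1.12 and Rpl7 by 1.58 on the log2 scale, with edgeR adjusted p of 0.0458, 0.0458 and 0.048. Among the short units with smaller differences, Rps29, Rpl38 and Rpl15 had log2 fold changes of -0.35, -0.43 and -0.26, and the states overlapped in Rps29 and Rpl38. Ribosomal protein genes have many processed copies elsewhere in a mammalian genome, so uniquely aligned reads leave part of these genes uncounted. The part of this in the values was not tested.

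The ribosomal protein units together had 1532, 1601 and 1464 CPM in ET replicates 1, 2 and 3 and 1361 and 1227 CPM in LT, against 650 to 1324 CPM in the SA, IBA and Ent libraries. The mean was 1532 ± 68.4 (SD, n = 3) in ET and 1294 ± 95.1 (SD, n = 2) in LT (two-sided exact permutation test, p = 0.2, the smallest possible). Both LT libraries were below all ET libraries and above all SA and IBA libraries. The sum is weighted to the longer members, such as Rpl34 and Rpl9, which have more counts.

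The other 10 called units were all lower in LT. Phf5a, a subunit of the splicing factor complex that recognizes the branch point (Itri4, plus strand, 7442713 to 7451501), had 44.9, 52.4 and 40.7 CPM in ET and 16.9 and 21.4 CPM in LT, and fell by 1.26 on the log2 scale (SE 0.18, edgeR adjusted p = 0.0212). Znf281, a zinc finger transcription factor (Itri9, plus strand, 74648342 to 74653720), had 37.5, 40.1 and 41.7 CPM in ET and 16.2 and 18.9 CPM in LT, and fell by 1.18 (SE 0.17, edgeR adjusted p = 0.0212). In both, the ET libraries lay close together and well above the LT libraries. Ndufa4, a subunit of cytochrome c oxidase (Itri2, minus strand, 39430137 to 39439736), had 29.7, 57.4 and 34.95 CPM in ET and 7.71 and 13.4 CPM in LT. It fell by 1.94 on the log2 scale, a 3.84-fold decrease (SE 0.32, edgeR adjusted p = 0.0379).

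Ube2a, a ubiquitin-conjugating enzyme, had 32.7, 34.8 and 26.3 CPM in ET and 11.03 and 14.4 CPM in LT, and fell by 1.29 (SE 0.23, edgeR adjusted p = 0.0458). Med7, a subunit of the Mediator complex that links transcription factors to RNA polymerase II, had 76.9, 75.03 and 47.1 CPM in ET and 23.6 and 28.4 CPM in LT, and fell by 1.35 (SE 0.25, edgeR adjusted p = 0.0479). Gng5, a G protein gamma subunit, fell by 1.21, and Nme2, a nucleoside diphosphate kinase whose unit starts 3558 nt behind that of its close relative NME1, fell by 1.16. Pnrc2, a nuclear receptor coactivator, fell by 1.31, and Rpp38, a protein subunit of ribonuclease P, fell by 1.198. Med7 and Gng5, at 10555 and 10648 nt, were the 2 called units longer than 10 kb. LOC106145023 had the largest called fold, 4.28, on the fewest counts, with 100, 36 and 55 in ET and 11 and 21 in LT. Its adjusted p was 0.0458 in edgeR.

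**Figure D4:**
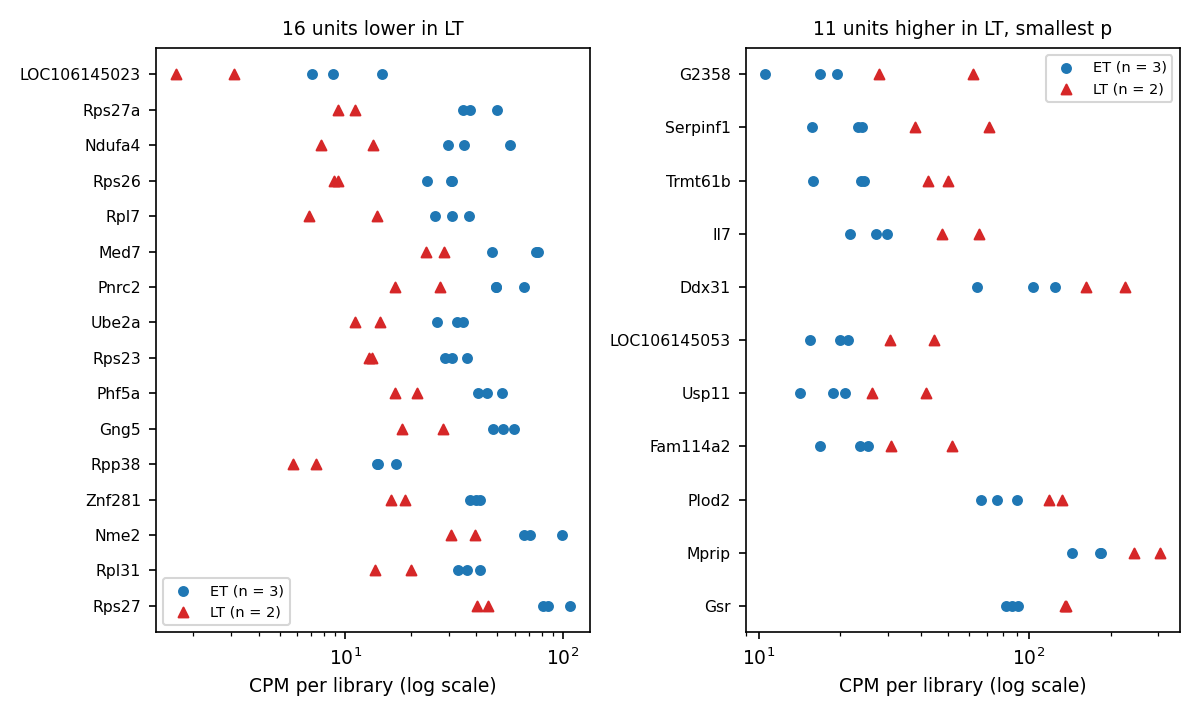
CPM in each ET (circles, n = 3) and LT (triangles, n = 2) library, on log axes, of the 16 units with an adjusted p at or under 0.05, all lower in LT, and of 11 of the 12 units with the smallest p among those higher in LT without overlap, of which 0 passed at 0.05. In LOC106145023, at the top left, the LT libraries are at 1.66 and 3.09 CPM, and in Gsr, at the bottom right, ET lies between 82.2 and 91.1 CPM and LT at 137 and 136 CPM.

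DESeq2 at 0.001 called a further 15 units lower in LT that edgeR did not call at 0.05, with edgeR adjusted p between 0.054 and 0.0729. They include Slc25a5, an ADP/ATP carrier of the inner mitochondrial membrane, with 60.8, 71.3 and 61.3 CPM in ET and 13.2 and 26.1 CPM in LT. It had a log2 fold change of -1.71 (SE 0.33, edgeR adjusted p = 0.0545). Nfkbia, the inhibitor that holds NF-kappaB in the cytoplasm, had a log2 fold change of -1.42 and Sat1, which acetylates polyamines, one of -1.50. Psmb4, a proteasome subunit, had -1.24, Polr1d, a subunit of RNA polymerases I and III, -1.36, and Taf7, a subunit of the general transcription factor TFIID, -1.55. The unit called by DESeq2 that was longer than 20 kb was Fam162a, at 32642 nt, with a log2 fold change of -1.60.

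No unit rose from ET to LT in edgeR, and the 12 units with the smallest p among those higher in LT without overlap were longer than the called ones. Their median length was 24650 nt, with 0 of 12 under 10 kb, against 6615 nt and 11 of 12 in the 12 lower units with the smallest p. Over all single-gene units the median length was 36217 nt, with 8.03% under 10 kb, so the 12 higher units were not a long group. Serpinf1, a secreted protein of the serpin family, had 23.4, 15.7 and 24.1 CPM in ET and 71.3 and 38.0 CPM in LT, with a log2 fold change of 1.37 (SE 0.27, edgeR adjusted p = 0.0565). Both LT libraries were above all ET libraries, LT replicate 1 far above LT replicate 3. It was among the 2 units that DESeq2 called higher at 0.001.

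Among the others, Gsr, which regenerates reduced glutathione, had 82.2, 86.8 and 91.1 CPM in ET and 137 and 136 CPM in LT. Its log2 fold change was 0.65 (SE 0.17, edgeR adjusted p = 0.156). Il7, a cytokine of lymphocyte development, had 1.10, Ddx31, a helicase of ribosome assembly, 0.999, and Plod2, which hydroxylates lysines of collagen, 0.70. Trmt61b, which methylates mitochondrial transfer RNA, had 1.10, Usp11, a deubiquitinase, 0.92, and Mprip, which binds myosin phosphatase, 0.69. Fam114a2, LOC106145053 and the unannotated G2358 had 0.91, 0.98 and 1.52. The nearest unit upstream on the same strand ended within 20 kb in 2 of the 12 higher units, Serpinf1 and Usp11 (16.7%), against 10.3% of all single-gene units and 2 of the 12 lower ones. The gaps were 3947 nt before Serpinf1, which follows a merged unit with Serpinf2, and 3526 nt before Usp11, which follows Cdk16.

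At the other end of the length scale, the 3 longest units with a gene symbol differed little. Macrod2, of 1941969 nt, had 278, 268 and 254 CPM in ET and 268 and 255 CPM in LT, with a log2 fold change of -0.03 whose 95% interval ran from -0.49 to 0.43. Dlg2, of 1969614 nt, had -0.36 (interval -1.27 to 0.56), and Auts2, of 1055950 nt, 0.27 (interval -0.54 to 1.08). The intervals of Dlg2 and Auts2 reach past a 2-fold change on one side. Of the 3 shortest, Fancf, a DNA repair gene of 2560 nt, had 18.8, 17.3 and 21.1 CPM in ET and 11.9 and 10.5 CPM in LT, with a log2 fold change of -0.77 (edgeR adjusted p = 0.323). CUNH22orf15 and the transfer RNA unit Trnap-ugg_gene6779 had 0.24 and 0.48 with overlapping libraries.

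For 6 of the genes that the study names for GRO-seq, 7 units were read, of which 0 were called. Nxph4, which it also names, lies in a merged unit with Lrp1 and Shmt2 and has no value of its own. A2m, a plasma protease inhibitor, had 348, 252 and 432 CPM in ET and 519 and 348 CPM in LT, a log2 fold change of 0.33 (SE 0.61, edgeR adjusted p = 0.954). Arrdc3, an arrestin domain protein, had 22.2, 52.8 and 71.2 CPM in ET and 79.1 and 55.2 CPM in LT, one of 0.46 (SE 0.66, edgeR adjusted p = 0.938). Serpina7, the thyroxine carrier of plasma, had -0.28, Atp6v1b2, a subunit of the proton pump of lysosomes, -0.17, and SCD_containing_gene16206 and SCD_containing_gene16210, named for stearoyl-CoA desaturase, 0.96 and -0.36. The ET and LT libraries overlapped in all 7 of these units, Hsp90aa1, given further on, among them.

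Whether units that were lower on entry into torpor became lower still during it was asked of units chosen on IBA and Ent alone, which share no library with ET and LT. From IBA to Ent, 157 single-gene units were lower by at least 2-fold at an unadjusted p at or under 0.05, and between ET and LT their median log2 fold change was 0.05. Of these, 67 were lower in LT (42.7%, against 52.8% of all units) and 90 higher, and 0 were called. Without overlap, 10 were lower (6.37%, against 13.9%) and 19 higher (12.1%, against 10.7%). Between Ent and ET the median of the same units was -0.90. That step shares the ET libraries, so both medians are given side by side and were not tested against each other.

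Some of these units were lower still in LT. Gamt, the enzyme that makes creatine, had 18.4, 23.4 and 23.9 CPM in ET and 9.67 and 14.3 CPM in LT, a log2 fold change of -0.87 (SE 0.21, edgeR adjusted p = 0.136). It was a short unit, of 6624 nt. Kcnab1, a potassium channel subunit of 199405 nt, had -0.64, GSTA3_like, named for a glutathione transferase, -0.44, and Cbr4, a carbonyl reductase, -0.37, with edgeR adjusted p of 0.523 to 0.866. In the opposite direction, P4ha1, which hydroxylates prolines of collagen, had 17.4, 26.1 and 23.1 CPM in ET and 38.5 and 39.0 CPM in LT (log2 fold change 0.81, edgeR adjusted p = 0.452). Pdia4, a disulfide isomerase of the endoplasmic reticulum, had 0.76, Lbh, a transcriptional cofactor, 1.004, and Axin1, a scaffold of the Wnt pathway, 0.70. None of these passed at 0.05 in edgeR.

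The 129 units that were higher by at least 2-fold from IBA to Ent had a median of -0.15 between ET and LT. Of these, 81 were lower (62.8%, against 52.8% of all units). Only 1, Med7, was called, where 0.34% of all units were called lower. Without overlap, 33 were lower (25.6%, against 13.9%) and 7 higher (5.43%, against 10.7%). The sign of the median differed between the short and the long ones. The 81 of them under 20 kb had a median of -0.23 with 28 lower without overlap. That share was 34.6%, against 36.2% of all units under 10 kb and 21.4% of those of 10 to 20 kb. The 20 of 50 kb or more had a median of 0.12, with 12 higher, 8 lower and 0 lower without overlap. In the median of these 20, ET replicate 1 lay above both LT libraries. Slc25a4, an ADP/ATP carrier as Slc25a5, had 145, 192 and 130 CPM in ET and 87.1 and 108 CPM in LT, a log2 fold change of -0.68 (edgeR adjusted p = 0.281). UBB_containing, named for polyubiquitin, had 69.8, 79.2 and 70.5 CPM in ET and 40.5 and 37.1 CPM in LT, a log2 fold change of -0.91 (edgeR adjusted p = 0.27). Vps29, a subunit of the retromer, had -1.15 and Prpf38b, a splicing factor, -0.62. Higher in LT were Lpl, which frees fatty acids from lipoproteins, with 23.4, 37.7 and 29.7 CPM in ET and 72.4 and 45.8 CPM in LT (log2 fold change 0.97, edgeR adjusted p = 0.423), and Hmgb2, a chromatin protein, with 0.66. Without ET replicate 1 the medians of these sets, lower and higher in Ent than in IBA, were 0.13 and -0.07.

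Of 21 gene lists, the ribosomal protein list had the lowest median from ET to LT, -0.53 over its 27 units, and the drug metabolism list the highest, 0.46 over 14. The other 19 lay between -0.22 and 0.09, against -0.02 for all single-gene units. Calls within the lists, all lower in LT, were the 6 ribosomal protein units, Ndufa4 in oxidative phosphorylation and Ube2a among the ubiquitin genes. Rps27a, one of the 6, is in the ubiquitin list too. Of all single-gene units, 0.34% were called lower and 52.8% had a log2 fold change below 0.

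**Figure D5:**
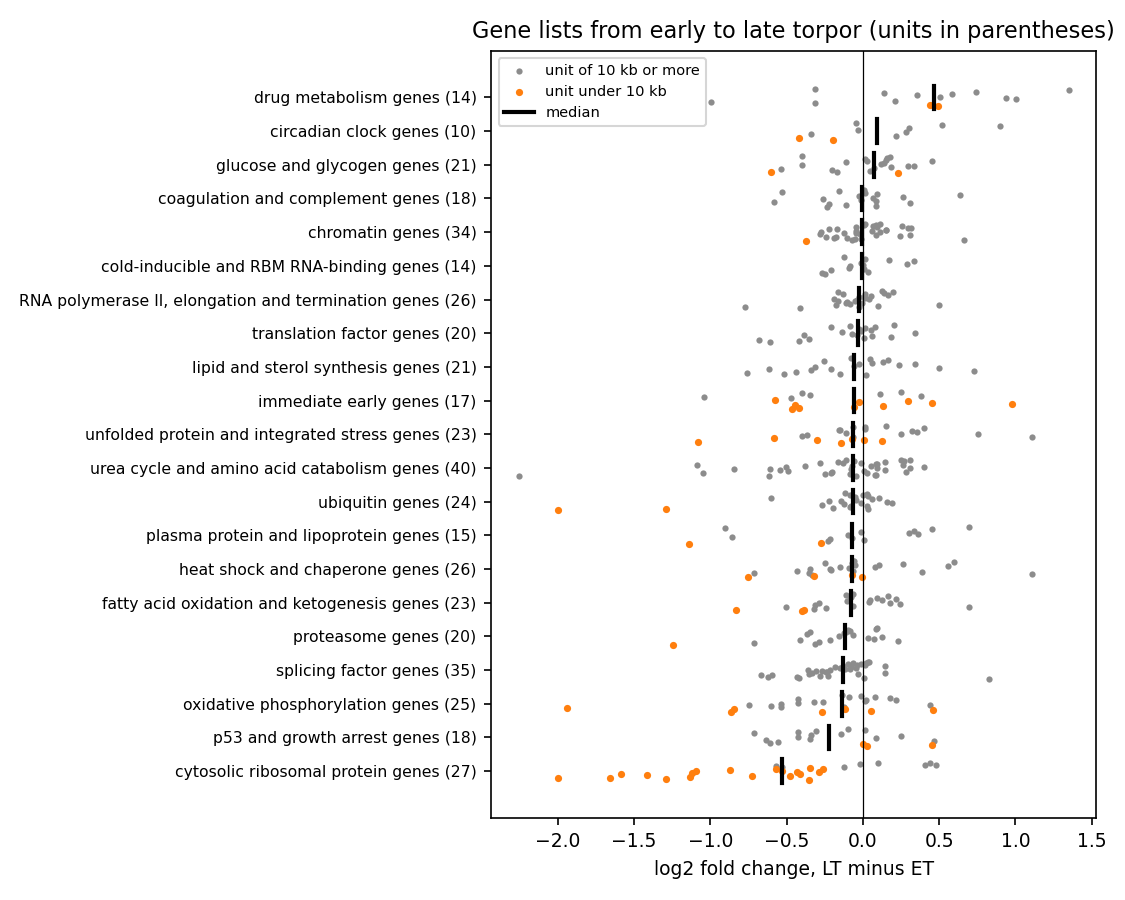
Log2 fold change from ET to LT of every single-gene unit in 21 gene lists, with the number of units in parentheses, units under 10 kb in orange and the median as a black bar. The medians run from -0.53 for the ribosomal protein genes, of which 19 of 27 are under 10 kb, to 0.46 for the drug metabolism genes.

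The drug metabolism list, enzymes and receptors that handle bile acids and foreign compounds, had 11 of 14 units higher in LT, 4 of them with an unadjusted p at or under 0.05 (28.6%, against 3.19% of all units), 5 higher without overlap (35.7%, against 10.7%) and 0 called. Aldh1a1, which oxidizes retinaldehyde, had 32.8, 115 and 232 CPM in ET and 306 and 340 CPM in LT, a log2 fold change of 1.35 (SE 0.57, edgeR adjusted p = 0.523). ET replicate 1 was far below the other ET libraries. Ahr, the aryl hydrocarbon receptor, had 55.1, 54.8 and 69.4 CPM in ET and 95.7 and 83.4 CPM in LT (log2 fold change 0.58, edgeR adjusted p = 0.551). CYP2C8 had 1.005 on levels under 17 CPM. CYP1A2 ran from 27.7 to 257 CPM among the ET libraries, and CYP7A1 and CYP8B1 were under 4 CPM in all 5. The 3 units lower in LT were CYP1A2, CYP2A7 and CYP7B1. Their 95% intervals ran from -2.91 to 0.92, from -0.90 to 0.28 and from -1.05 to 0.41. Of the 49 symbols of the list, 14 had a unit of their own under the listed name. The median of the list was 0.31 without ET replicate 2.

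Chaperone genes, whose products fold other proteins, had a median of -0.07 over 26 units. In LT 19 were lower (73.1%, against 52.8% of all units) and 7 higher. At an unadjusted p at or under 0.05, 3 were higher (11.5%, against 3.19%) and 1 lower (3.85%, against 6.08%). Single members pointed both ways. Hspa5, the main chaperone of the endoplasmic reticulum, had 131, 190 and 169 CPM in ET and 420 and 281 CPM in LT (log2 fold change 1.11, standard error 0.39, edgeR adjusted p = 0.379). Dnajb6 had 183, 134 and 180 CPM in ET and 286 and 215 CPM in LT (log2 fold change 0.60, edgeR adjusted p = 0.179), and Hsf2, a heat shock transcription factor, had 158, 199 and 157 CPM in ET and 269 and 234 CPM in LT (log2 fold change 0.56, edgeR adjusted p = 0.25). Dnajb1 had -0.71. Hsp90aa1, which was 1.90 higher on the log2 scale in ET than in Ent, had 220, 144 and 128 CPM in ET and 133 and 128 CPM in LT, a log2 fold change of -0.33 with overlap. Per2, a core repressor of the circadian clock, had 107, 119 and 147 CPM in ET and 236 and 228 CPM in LT, a log2 fold change of 0.90 (SE 0.25, edgeR adjusted p = 0.216), while the clock list had 5 units higher and 5 lower.

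Splicing factor genes had 27 of 35 units lower in LT (77.1%, against 52.8% of all units), with a median of -0.13. At an unadjusted p at or under 0.05, 6 were lower (17.1%, against 6.08%) and 1 higher (2.86%, against 3.19%). Without overlap, 11 were lower (31.4%, against 13.9%) and 2 higher (5.71%, against 10.7%). None of these 35 was under 10 kb, and the called Phf5a is not in the list. Hnrnph1 had 228, 212 and 198 CPM in ET and 125 and 142 CPM in LT (log2 fold change -0.67, standard error 0.17, edgeR adjusted p = 0.161). Srsf7 went the other way, with 90.3, 92.5 and 80.8 CPM in ET and 193 and 118 CPM in LT (log2 fold change 0.82, edgeR adjusted p = 0.185). Oxidative phosphorylation genes, which encode the respiratory chain and ATP synthase, had 17 of 25 lower in LT (68%, against 52.8% of all units). Of these, 8 had an unadjusted p at or under 0.05 (32.0%, against 6.08% of all units) and 1 was called (0.34% of all units were). At that unadjusted p 1 was higher (4%, against 3.19%), and 9 were lower and 3 higher without overlap (36% and 12%, against 13.9% and 10.7%). The units were short, with a median of 12269 nt and 7 of 25 under 10 kb. Of all units under 10 kb and of 10 to 20 kb, 24.9% and 11.3% reached that p as lower. Beside Ndufa4, Ndufb2 had -0.84 and Sdhd, a subunit of succinate dehydrogenase, -0.75, with edgeR adjusted p of 0.136 and 0.236. Their summed level was 2113 ± 74.0 CPM (SD, n = 3) in ET and 1953 ± 37.1 (SD, n = 2) in LT, without overlap (two-sided exact permutation test, p = 0.2, the smallest possible).

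Proteasome genes had 14 of 20 units lower in LT (70%, against 52.8% of all units), with a median of -0.12. Psmb4 and Psma1 had -1.24 and -0.71. The ubiquitin list had a median of -0.07, and beside its called members Ube2w had -0.60. Translation factor genes had a median of -0.03 over 20 units, with Eif1, which selects the start codon, at -0.61. Immediate early genes, which respond first to signals, had 10 of 17 units under 10 kb but a median of -0.06. Myc had 12.8, 16.5 and 24.3 CPM in ET and 37.6 and 32.7 CPM in LT (log2 fold change 0.98, edgeR adjusted p = 0.607), whereas Klf6 had 101, 95.3 and 117 CPM in ET and 50.5 and 51.0 CPM in LT (log2 fold change -1.04, edgeR adjusted p = 0.469). Genes of p53 and growth arrest had a median of -0.22 over 18 units, with 12 lower in LT (66.7%, against 52.8% of all units). In the unfolded protein list Sdf2l1, of 4548 nt, had -1.08 and Pdia4, of 24334 nt, 0.76.

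The lists of plasma proteins and of fat, sugar and amino acid metabolism had medians between -0.08 and 0.07, against -0.02 for all units. Plasma protein and lipoprotein genes, the main secreted products of the hepatocyte, had a median of -0.07 over 15 units, and coagulation and complement genes one of -0.00 over 18. Within the first, Mttp, which loads lipid onto lipoproteins, had 262, 357 and 428 CPM in ET and 647 and 481 CPM in LT (log2 fold change 0.69, edgeR adjusted p = 0.218). Apoc3, of 3594 nt, had 68.6, 56.0 and 29.5 CPM in ET and 28.3 and 18.4 CPM in LT (log2 fold change -1.14, edgeR adjusted p = 0.618). The summed level of the plasma protein units was 5851 ± 1002 CPM (SD, n = 3) in ET and 6894 ± 1507 (SD, n = 2) in LT, with overlap (exact permutation test, p = 0.6). The medians were -0.08 for 23 units of fatty acid oxidation and ketogenesis, -0.05 for 21 of lipid and sterol synthesis, 0.07 for 21 of glucose and glycogen metabolism and -0.07 for 40 of the urea cycle and amino acid catabolism. Sc5d, a late enzyme of cholesterol synthesis, had 96.6, 96.6 and 75.6 CPM in ET and 52.5 and 53.5 CPM in LT (log2 fold change -0.76, edgeR adjusted p = 0.119).

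Genes of RNA polymerase II, elongation and termination had a median of -0.03 over 26 units. Polr2a, the largest subunit, had 80.7, 81.3 and 89.1 CPM in ET and 136 and 101 CPM in LT (log2 fold change 0.50, edgeR adjusted p = 0.256), and Nudt21, a cleavage and polyadenylation factor, had -0.77. Chromatin genes and cold-inducible and RBM genes both had medians within 0.01 of 0, over 34 and 14 units. The chromatin units were long, with a median of 78656 nt.

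Markers of cell types were read for the same libraries. Of 14 hepatocyte markers 9 had a unit, and their summed level was 3957 to 6465 CPM in ET and 4959 and 7487 CPM in LT. Of 11 endothelial markers 5 had a unit (152 to 237 CPM in ET, 155 and 172 in LT), and of 11 stellate markers 2 (226 to 273 in ET, 190 and 201 in LT). Of 8 cholangiocyte markers 3 had a unit, with 228 to 277 CPM in ET and 180 and 182 in LT. The 3 cholangiocyte units were lower in LT, and 4 of the 5 endothelial ones, such as Oit3 with a log2 fold change of -1.05 (edgeR adjusted p = 0.136). No unit of its own was found for the 11 macrophage and the 8 lymphoid markers, and the single erythroid one, Ank1, had 6.48 to 19.1 CPM in ET and 13.6 and 16.3 in LT. The stellate and cholangiocyte sums moved with the state, and their part in the results was not tested.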

How the data were processed

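Nuclei from frozen liver were run on with a brominated nucleotide, and the labelled RNA was immunoprecipitated and sequenced. The authors trimmed the reads with cutadapt, aligned them with BWA to HiC_Itri_2, redefined gene bodies with fstitch without the first 500 nt, and counted reads with featureCounts. The deposited values are raw counts per unit and library, not normalized, and unit lengths are given with them. The authors removed LT replicate 2, and it was not analysed here. Names of 4063 of the 4705 single-gene units matched RefSeq symbols of another assembly (mIctTri1.hap1), used for names only.

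Here, counts of all 6324 units and 14 libraries were normalized by TMM and fitted with edgeR 4.0.16 (quasi-likelihood, R 4.3.3), with LT minus ET as the contrast and Benjamini-Hochberg adjustment over all units. No unit was filtered. Distances between libraries and deviations from the mean of the 5 ET and LT libraries used log2 CPM with a prior count of 2. Exact permutation tests (scipy 1.17.1) were two-sided. Standard errors were taken as the log2 fold change over the square root of F. DESeq2 1.42.0, voom from limma 3.58.1, other scalings, filters and subsets, a block on replicate number, removal of a length trend and fits without each single library were tried as alternatives. Genome sequence was not used here. The fit was tested on simulated data. The units named are those called by edgeR at 0.05 or DESeq2 at 0.001, the 12 with the smallest p in each direction without overlap, up to 3 per list, the 3 longest and shortest, genes named in the study, and up to 8 that had changed from IBA to Ent in each combination of directions. The other ribosomal protein units, CYP1A2, CYP2A7, CYP7A1, CYP7B1, CYP8B1 and the marker units were named after their values were seen. A few units that this rule covers are not reported here. The comparison, lists and limits of length were chosen with earlier results of these data known. P-values of edgeR, DESeq2 and limma-voom set the difference between ET and LT against the spread between animals within states. That spread was estimated from all 14 libraries unless a subset was fitted. Exact permutation p-values place the difference among all ways to divide the 5 libraries into 3 and 2, with the smaller one-sided p multiplied by 2.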

Additional observations from a re-analysis of the deposited data

How the results depend on the processing

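With 2 LT animals the 95% interval stayed within a 2-fold change in 37.0% of the units under 10 kb, and the number of calls moved with most choices. At an adjusted p of 0.001 all edgeR and limma-voom settings called 0 units and DESeq2 called 31 lower and 2 higher in LT. At 0.05, the number lower in LT was 80 with DESeq2, 6 with upper-quartile normalization, 5 with library totals alone, 32 with single-gene units alone in the fit, and 0 with the ET and LT libraries alone or with the length trend removed. The number higher was 18 with DESeq2, 1 with limma-voom and 2 with single-gene units alone. With each library left out in turn, it was 0 to 16 lower and 0 to 3 higher at 0.05, and 139 to 309 lower and 73 to 160 higher at an unadjusted p of 0.05. The lowest of each at the unadjusted p came without LT replicate 1. With the length trend removed, 53.7% of the units with an unadjusted p at or under 0.05 were lower in LT (212 against 183), against 65.6% before.

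With the replicate number of the titles as a block, 3 units were called lower at 0.05. The numbers mark different animals and did not pair the libraries, since deviations of same-numbered libraries had a mean correlation of 0.010 (26 pairs) and those of differently numbered ones -0.005 (52 pairs).

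The median of units of 200 kb or more minus that of units under 10 kb, 0.36, was 0.20 between the longest and shortest quartile, 0.16 in the middle tertile of read density, 0.061 with the length trend removed, which takes out such a difference by construction, and 0.27 to 0.48 without single libraries. The lowest tertile of read density held no unit under 10 kb and gave no value. The median of units lower in Ent than in IBA was 0.031 to 0.126 without single libraries, and that of units higher in Ent -0.18 to -0.073, and -0.071 with the length trend removed. The 16 called units kept their sign under all 15 alternatives, and their calls were lost in 128 of 240 instances. Of the other named units, these changed sign. With each library left out in turn, Atp6v1b2 ran from -0.47 without LT replicate 1 to 0.079 without LT replicate 3, Macrod2 from -0.063 to 0.0058, Rps29 from -0.82 to 0.0036 and Serpina7 from -0.70 to 0.050 without the same libraries, and Macrod2 had 0.0018 without ET replicate 1. Rpl38 ran from -1.13 without LT replicate 3 to 0.040 without LT replicate 1. CUNH22orf15 ran from -0.17 without ET replicate 2 to 0.91 without ET replicate 1, with -0.12 without LT replicate 3, and Trnap-ugg_gene6779 from -0.0016 to 0.95 without the same ET libraries. SCD_containing_gene16206 ran from -1.13 without LT replicate 1 to 1.99 without ET replicate 1, and SCD_containing_gene16210 from -0.75 to 0.14 without the same libraries. With the length trend removed, Rps29 had 0.044 and Serpina7 0.035. The cause of these changes was not tested.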
